A study of Mus musculus with 8 samples.

Results

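The genes followed here, in neural stem cells kept at low or atmospheric oxygen, are targets that the transcription factor p53 is known to switch on. They were taken by name, through the accession of each array probe, and all 10 were measured among 26825 genes and transcripts tested. Cdkn1a, Ccng1, Btg2, Zmat3 and Mdm2 form the arrest and feedback group of 5, and Bax, Bbc3, Pmaip1, Phlda3 and Trp53inp1 the apoptosis group of 5. The cells came from E13.5 mouse embryos of the OF-1 strain and grew in medium without serum from the day of isolation, for at least 10 days, at 5% oxygen (hypoxia) or 21% oxygen (normoxia). No transgene, deletion or drug is named for either group. Each group held 4 cultures, which the labels number as replicates 1 to 4. The series text gives 4 independent experiments on different donors, and the growth protocol has both oxygen levels run at the same time. Cultures with the same number are taken here as 1 experiment, which the labels do not state. RNA from each culture was labelled with Cy3 and read on a 1-colour Agilent expression array.

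p53 is a stress sensor that is held low in resting cells because the ubiquitin ligase Mdm2, itself a p53 target, marks it for destruction. When DNA is damaged or oxygen falls very low, p53 is stabilised and raises genes that halt the cell cycle, genes that open the mitochondrial route to cell death, and Mdm2, which closes the loop. In neural progenitors the same pathway limits self-renewal and removes damaged cells.

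Promoter windows of RefSeq (assembly GRCm38.p6, 250 bases before to 50 after a transcription start) were given for 7 of the 10 genes, in 10 windows. The p53 half-site is the 10-base unit that p53 dimers bind, and a full response element holds a pair of them. A half-site with no mismatch lay in 4 of the 10 windows, 1 each of Cdkn1a, Ccng1, Mdm2 and Bax, against 8.36% of all 32851 windows. With up to 1 mismatch allowed, a half-site lay in 7 of the 10 windows, against 50.9% of all windows. The consensus is its own reverse complement, so each match holds for both strands. Abutting half-sites with at most 1 mismatch each, a search added after the half-sites had been seen, lay in windows of Cdkn1a and Ccng1 and in 0.204% of all windows. The matches below are shown because the genes were chosen as p53 targets. Whether p53 binds them was not tested. Each is read along its gene, with the half-sites in capitals and 5 flanking bases on either side in lower case, and the paired sites each hold 1 mismatch in all. The paired Cdkn1a match lies 51 to 32 bases before 1 of its 2 starts with a window (chr17:29090923-29090952, plus strand), that of Ccng1 195 to 176 bases before it (chr11:40755457-40755486, minus strand), that of Mdm2 186 to 177 bases before it (chr10:117710930-117710949, minus strand) and that of Bax 201 to 192 bases before it (chr7:45467085-45467104, minus strand). The same Cdkn1a window holds another half-site with no mismatch, 73 to 64 bases before the start, and the window of the other start holds none.
Cdkn1a: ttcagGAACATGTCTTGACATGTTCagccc
Ccng1: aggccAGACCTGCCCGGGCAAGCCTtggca
Mdm2: gatagGAACTTGCCTagcga
Bax: atcccAGGCAAGCTTtgaac

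The core of the hypoxia response element, ACGTG on either strand, lay in windows of Bbc3 and Bax and in 19.6% of all windows. A match describes the letters of the window and shows no binding. The windows of Btg2, Phlda3 and Bbc3 held no half-site without a mismatch, which says only that these letters are not in those windows.

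The arrays held the markers expected of the labelled cells and those of other cell types, and known hypoxia genes rose. All 10 neural stem cell markers, among them Nes, Sox2, Fabp7 and Vim, were well above background on all 8 arrays. So were 5 of 5 neuron, 4 of 4 astrocyte and 5 of 5 oligodendrocyte lineage markers. The same held for 4 of 5 meningeal fibroblast, 3 of 6 microglia and leukocyte, 3 of 4 endothelial and 2 of 2 erythroid markers tested. Detection alone therefore does not tell these cell types apart. In intensity units, the 75th percentile of an array lay between 1909 and 7352. Of 9 genes known to rise in hypoxia, 8 rose, including Car9 by 4.25 on the log2 scale and Egln3 by 1.73. Over all genes, 1486 of 26825 passed the threshold, or 5.54%, of which 4.25% rose and 1.29% fell (limma with the experiment as a block, Benjamini-Hochberg adjusted p under 0.05). Markers of other cells also moved. Past the threshold, 4 of 5 meningeal fibroblast, 2 of 5 oligodendrocyte lineage and 1 of 5 neuron markers (Nefl) rose. Of 4 endothelial markers, Cldn5 and Tek fell. Tek was well above background on 3 normoxia arrays but on only 1 hypoxia array, so it was kept only through normoxia, where it was higher. Summed over the fibroblast list, the signal relative to the array's 75th percentile ran from 1.06 to 5.02 in normoxia and 2.17 to 10.0 in hypoxia. The sum ran from 3.12 to 14.6 and 9.27 to 16.9 for the oligodendrocyte list, and from 1.07 to 4.07 and 1.38 to 3.22 for the endothelial list. The part of these cells in the values that follow was not tested, and in RNA from whole cultures fewer cells of a type and less RNA per cell cannot be told apart.

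None of the 10 p53 target genes passed the threshold between 5% and 21% oxygen. Over all genes 5.54% passed, so a count of 0 among 10 is near that share. Their differences, hypoxia minus normoxia on the log2 scale, ran from -0.21 for Pmaip1 to 0.07 for Cdkn1a, with 4 genes above 0 and 6 below. No member had an unadjusted p under 0.05 (limma), against 5204 of all 26825 genes and transcripts tested. The median difference was -0.02 over the members and 0.03 over all genes. The arrest and feedback group had a median of -0.0037 and the apoptosis group of -0.05, each with 2 genes above 0 and 3 below. Without the block no member passed either, against 0.0895% of all genes.

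The width of the intervals shows how large a change these arrays leave room for. For all 10 members the 95% interval of the difference, taken gene by gene, lay within 1.5-fold either way, as it did for 53.8% of all genes. This count was made after the values had been seen, and it was 7 to 9 of 10 when any 1 experiment was left out and 6 of 10 without the block. The widest reach was that of Btg2 towards lower levels in hypoxia, to 0.675 of normoxia, and the interval of Cdkn1a ended at 1.32-fold. In no member did the 4 hypoxia arrays separate from the 4 normoxia arrays. The groups did not overlap for 4.81% of all genes, so a count of 0 among 10 is near the share over all genes.

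**Figure D1:**
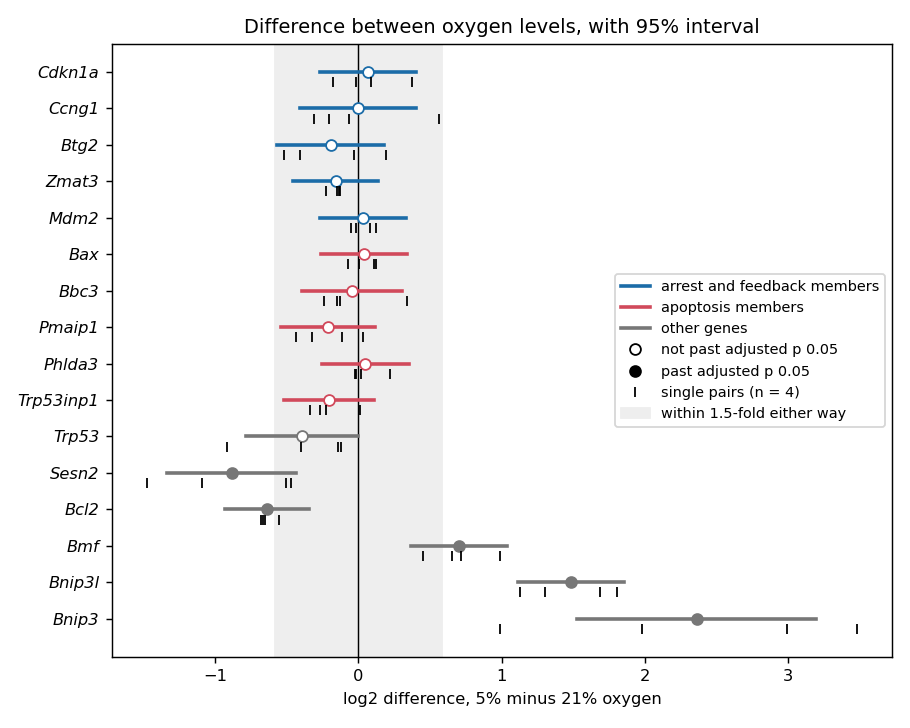
Log2 difference of each gene, 5% minus 21% oxygen, with its 95% interval (horizontal bars) and the 4 single pairs (ticks), and filled circles for genes past an adjusted p of 0.05. The grey band marks 1.5-fold either way: the intervals of all 10 p53 targets lie inside it, and those of Trp53, Sesn2, Bcl2, Bmf, Bnip3l and Bnip3 do not.

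Among the arrest genes, Cdkn1a encodes p21, an inhibitor of cyclin-dependent kinases and the classic read-out of p53. Its levels, as log2 signal relative to the array's 75th percentile, were 4.61, 4.49, 4.76 and 4.58 in normoxia cultures 1 to 4 and 4.98, 4.48, 4.85 and 4.40 in hypoxia cultures 1 to 4. Both the highest and the lowest array were hypoxia arrays, so the normoxia values lay inside the range of the hypoxia values. The means were 4.61 ± 0.11 and 4.68 ± 0.28 (SD, n = 4 each), a ratio of 1.05 with a 95% interval from 0.830 to 1.32 (adjusted p = 0.86). A second probe, designed on another Cdkn1a transcript, gave a difference of 0.12 (SE 0.14), and neither probe passed.

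Ccng1 encodes cyclin G1, which brings a phosphatase to Mdm2. It had the smallest difference of the 10, -0.0037 (SE 0.17, adjusted p = 0.99). Normoxia cultures 1 to 4 read 4.23, 3.89, 4.13 and 4.23 and hypoxia cultures 1 to 4 read 4.02, 4.46, 4.07 and 3.92. Experiment 2 stood against the others here: its level was higher in hypoxia by 0.57, while the other 3 experiments were lower by 0.06 to 0.31. Leaving out experiment 2 gave a difference of -0.19, which did not pass.

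Btg2 encodes an antiproliferative protein that marks neural progenitors about to give rise to neurons. Normoxia cultures 1 to 4 read 1.25, 1.94, 2.13 and 1.59, and hypoxia cultures 1 to 4 read 1.44, 1.42, 2.10 and 1.18. It was lower in hypoxia in 3 of 4 experiments, by a mean over all 4 of -0.19 (95% interval -0.57 to 0.18, adjusted p = 0.58).

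Zmat3, a zinc finger protein that binds RNA, was the only member whose difference had the same sign in all 4 experiments, as in 28.2% of all genes. It was lower in hypoxia by 0.15, 0.13, 0.23 and 0.14 in experiments 1 to 4. The 4 values lay close together, but the mean of -0.16 (95% interval -0.45 to 0.14) did not pass (adjusted p = 0.56). The groups overlapped, at 3.62 to 4.02 in normoxia and 3.49 to 3.87 in hypoxia.

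Mdm2, the feedback arm of the loop, varied least among the members. Its 8 arrays lay between 4.41 and 4.73, a span of 1.25-fold. Normoxia averaged 4.53 ± 0.09 and hypoxia 4.56 ± 0.11 (SD, n = 4 each), and the difference was 0.03 (95% interval -0.27 to 0.33, adjusted p = 0.93). With 2 experiments higher and 2 lower in hypoxia, its pairs had no common direction.

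**Figure D2:**
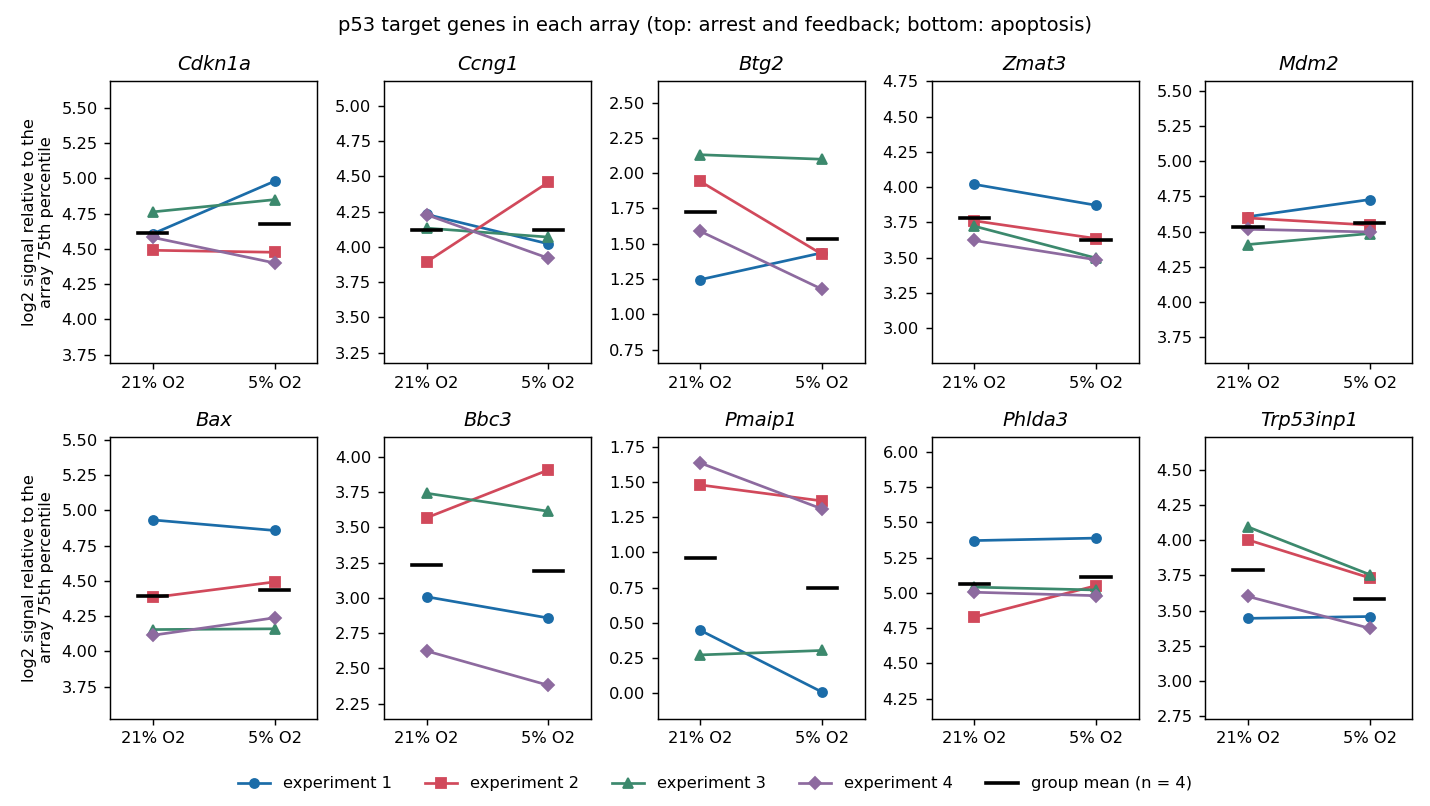
Log2 signal relative to the array's 75th percentile (vertical axes, each spanning 2 log2 units) for the 10 genes at 21% and 5% oxygen. Lines join the cultures of 1 experiment and black bars are group means of 4; the 4 lines of Zmat3 all fall, those of the other genes do not share a direction, and in Pmaip1 and Bbc3 a high and a low pair of experiments stay apart at both oxygen levels.

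Among the apoptosis genes, Bax encodes the protein that opens pores in the outer mitochondrial membrane. Normoxia cultures 1 to 4 read 4.93, 4.38, 4.15 and 4.11, and hypoxia cultures 1 to 4 read 4.86, 4.49, 4.16 and 4.24. Each experiment kept its level across oxygen to within 0.12, while experiment 1 stood above the others in both groups. The difference was 0.04 (95% interval -0.26 to 0.34, adjusted p = 0.91).

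Bbc3 and Pmaip1 encode Puma and Noxa, small proteins that bind and block the survival members of the Bcl2 family. Bbc3 read 3.01, 3.57, 3.74 and 2.62 in normoxia cultures 1 to 4 and 2.86, 3.91, 3.61 and 2.38 in hypoxia cultures 1 to 4. Experiments 2 and 3 were high and experiments 1 and 4 low, at either oxygen level. The difference between oxygen levels was -0.05 (95% interval -0.39 to 0.30, adjusted p = 0.91).

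Pmaip1 read 0.45, 1.48, 0.27 and 1.63 in normoxia cultures 1 to 4 and 0.01, 1.37, 0.31 and 1.31 in hypoxia cultures 1 to 4. Here experiments 2 and 4 were high and experiments 1 and 3 low, again at either oxygen level. It had the largest difference among the members, -0.21 (95% interval -0.54 to 0.12, adjusted p = 0.48), and it was lower in hypoxia in 3 of 4 experiments.

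Trp53inp1, a nuclear stress protein that promotes p53 activity, was lower in hypoxia by 0.27, 0.34 and 0.23 in experiments 2, 3 and 4 and higher by 0.01 in experiment 1. The mean difference was -0.21 (95% interval -0.52 to 0.11, adjusted p = 0.46), the smallest adjusted p of the 10 genes. A second probe of the same transcript gave -0.26 (SE 0.15), also lower in 3 of 4 experiments and not past the threshold. Phlda3, which restrains the survival kinase Akt, differed by 0.05 (95% interval -0.26 to 0.35, adjusted p = 0.89), with experiment 1 highest at both oxygen levels, at 5.37 and 5.39.

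In every member but Ccng1, the largest part of the sum of squares followed the experiment. The experiment took a median of 79.3% of a member's sum of squares over the 8 arrays and the oxygen level 3.04%, against medians of 65.5% and 8.40% over all genes. The experiment has 3 degrees of freedom and the oxygen level 1, so these shares are a description and not a comparison on equal terms. Bax (97.7%), Bbc3 (95.3%) and Pmaip1 (94.8%) followed the experiment most closely, and Ccng1 least (4.69%, with 95.3% following neither). The oxygen share was highest in Zmat3, at 21.8%, and Trp53inp1, at 17.3%.

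Tested across the 4 experiments in the same fit, 2 of 10 members differed, against 19.4% of all genes, which is near the same share (limma, moderated F, a test added after the oxygen results were seen). They were Pmaip1 (adjusted p = 0.012) and Bbc3 (adjusted p = 0.0207), with experiment means 2.37-fold and 2.36-fold apart. Bax, at 1.67-fold, did not pass (adjusted p = 0.0575), nor did Btg2 at 1.71-fold (adjusted p = 0.0953). The genes did not rank the experiments alike. Experiment 1 was the highest for 4 members (Zmat3, Mdm2, Bax and Phlda3), experiment 3 for 3 (Cdkn1a, Btg2 and Trp53inp1), experiment 2 for Ccng1 and Bbc3, and experiment 4 for Pmaip1. Donor, culture and array cannot be told apart in these differences.

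**Figure D3:**
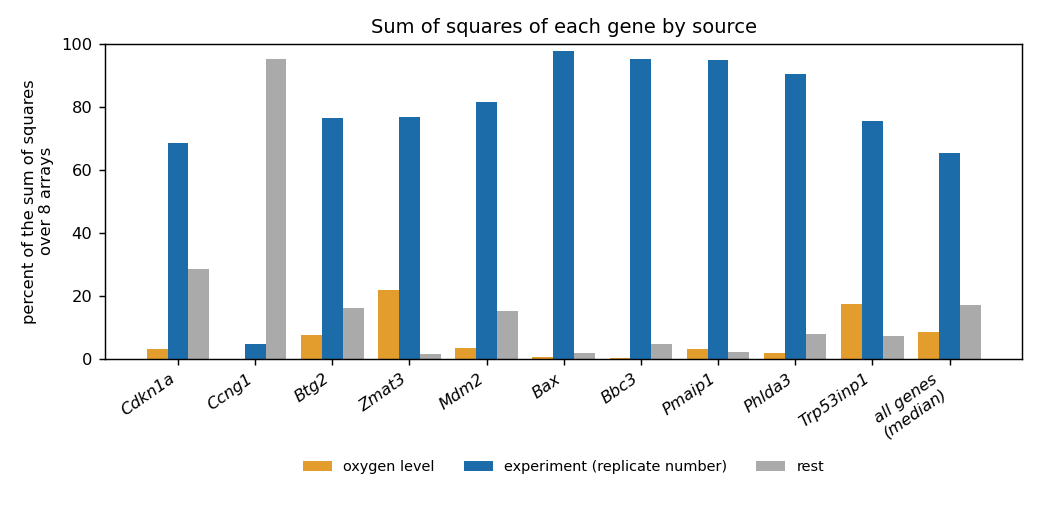
Percent of each gene's sum of squares over the 8 arrays (vertical axis) that follows the oxygen level, the experiment or neither. The experiment bar is the tallest for every member but Ccng1, and the last set of bars gives the medians over all 26825 genes and transcripts.

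p53 itself and the genes that control it were measured beside their targets. Of 20 genes in this list none passed (limma), against 5.54% of all genes, which is near the same share. An unadjusted p under 0.05 was found for 6 of the 20, against 5204 of all 26825 genes and transcripts tested. The median difference was -0.07. Trp53, which encodes p53, read 0.50, 0.01, 0.60 and 0.56 in normoxia cultures 1 to 4 and 0.38, -0.91, 0.45 and 0.16 in hypoxia cultures 1 to 4. It was lower in hypoxia in all 4 experiments, most in experiment 2, and 28.2% of all genes had the same sign in all 4. The groups overlapped and the mean of -0.40 (95% interval -0.79 to -0.0037) did not pass (adjusted p = 0.252). Leaving out experiment 2 gave a difference of -0.22 (adjusted p = 0.48). Mdm4, the partner of Mdm2 in restraining p53, differed by -0.12 (adjusted p = 0.70).

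The kinase gene Atr, a sensor of stalled replication, stood at 2.20 ± 0.11 in normoxia and 2.76 ± 0.13 in hypoxia (SD, n = 4 each), with no overlap of the groups. Its difference of 0.55 fell short of the threshold (adjusted p = 0.0582) and passed in 5 of 15 alternative analyses. Sirt1, a deacetylase that acts on p53, differed by -0.55 (adjusted p = 0.10) and passed in 3 of them.

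Among 24 other p53 targets of arrest, repair and metabolism, Sesn2 alone passed, near the share of 5.54% over all genes. Sesn2 encodes a sestrin that restrains the growth kinase mTOR and is also raised by amino acid shortage. It read 3.52, 4.48, 3.84 and 3.09 in normoxia cultures 1 to 4 and 3.01, 3.01, 2.74 and 2.62 in hypoxia cultures 1 to 4, so that every hypoxia value lay below every normoxia value. Sesn2 fell by 0.89 on the log2 scale (SE 0.20, adjusted p = 0.0404). The call was lost without experiment 1 (adjusted p = 0.065), 2 (0.107) or 3 (0.183), without the block (0.335), under quantile normalization (0.0659) and with no filter on dim probes (0.137). Its difference stayed between -1.02 and -0.69 with 1 experiment left out. Of the 24 genes 15 were above 0 and 9 below, with a median of 0.08.

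None of 13 other apoptosis targets of p53 passed (limma), which is near the share of 5.54% over all genes. None had an unadjusted p under 0.05, against 5204 of all 26825 genes and transcripts tested. Their median difference was -0.13. Eda2r, a death receptor gene, at -0.36 (adjusted p = 0.294) and Bid, which links death receptors to mitochondria, at -0.28 (adjusted p = 0.301) had the smallest p.

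In the Bcl2 family outside the 10 members, 3 of 13 genes rose and 1 fell, against 4.25% and 1.29% of all genes. The list was chosen with earlier results of these data known, so the count is a description. Bnip3 and Bnip3l encode mitochondrial proteins that recruit the autophagy machinery and are known targets of the hypoxia-inducible factor. Bnip3 rose 5.14-fold (95% interval 2.88 to 9.17, adjusted p = 0.0106), from 3.59 ± 0.95 to 5.95 ± 0.54 (SD, n = 4 each), and Bnip3l rose 2.79-fold (2.16 to 3.61, adjusted p = 0.00321). Neither gene's groups overlapped, and both calls held without any 1 of the 4 experiments, but not without the block (adjusted p = 0.091 and 0.0804). The Bnip3 call was also lost with no filter on dim probes (0.0592) and with trend and robust moderation (0.0719).

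Bcl2, the survival gene that names the family, fell by 0.64 on the log2 scale (SE 0.13, adjusted p = 0.0287). The 4 experiments gave -0.68, -0.56, -0.65 and -0.66, close to one another, although the groups overlapped because the experiments differed in level. Bmf, a death-promoting member that senses loss of attachment, rose by 0.70 (SE 0.14, adjusted p = 0.0314) and was higher in hypoxia in all 4 experiments. The Bcl2 call was lost without any 1 experiment (adjusted p from 0.0562 to 0.155), the Bmf call without experiment 1 (0.127), 3 (0.122) or 4 (0.107), although the differences stayed between -0.67 and -0.62 for Bcl2 and between 0.61 and 0.79 for Bmf. Both calls were lost without the block (0.468 and 0.851) and with no filter on dim probes (0.0994 and 0.109). The Bmf call, in a gene read below the 75th percentile on every array, was also lost with the block as a random effect (0.174) and under median scaling (0.057). Bax, Bbc3 and Pmaip1 belong to the same family and differed by 0.04, -0.05 and -0.21, none past the threshold. No test compared them with Bcl2 or Bnip3.

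**Figure D4:**
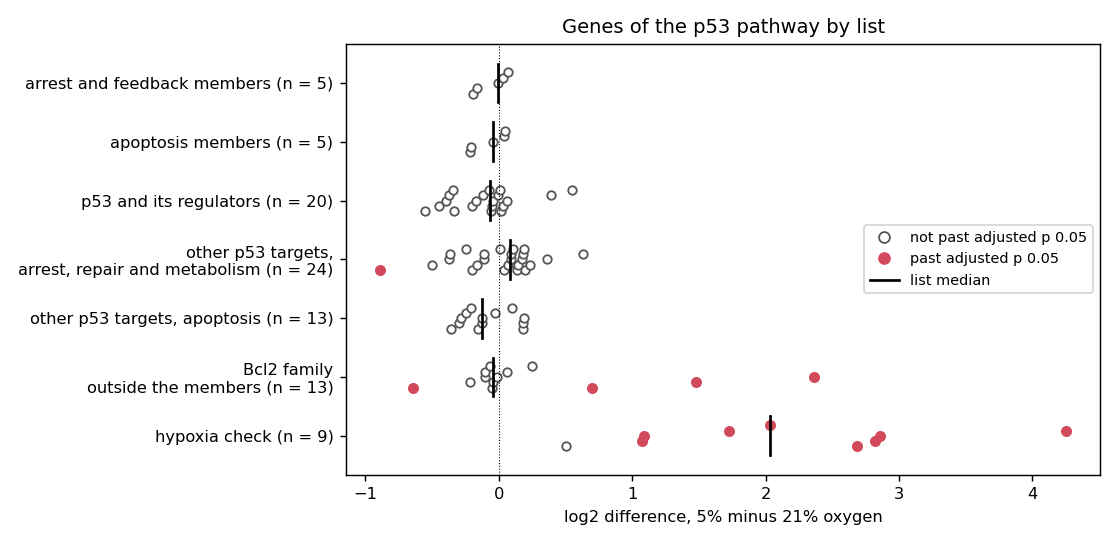
Log2 difference, 5% minus 21% oxygen, of each gene (circles, filled where past an adjusted p of 0.05) in 7 lists, with the list median as a bar. The medians of the p53 lists and of the Bcl2 family lie between -0.13 and 0.08. Single genes of the p53 lists reach from -0.89 (Sesn2) to 0.63 (Ddit4). Filled are Sesn2 alone in the p53 lists, 4 of 13 Bcl2 family genes and 8 of 9 hypoxia genes, against 5.54% of all genes.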

How the data were processed

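The deposited intensity values of 8 arrays are processed signals that the authors' scanner software wrote; the submitters' processing notes name it as Agilent Feature Extraction, version 10.7.3.1. All arrays share 1 scan time in the headers, so no scan batch could be tested. Each signal was put on the log2 scale and the 75th percentile of its array, taken over spots that are not controls, was subtracted. Outlier spots were dropped (55 otherwise kept probes lost), spots of a probe averaged, and probes kept if well above background on at least 3 of 4 arrays of a group (37652 of 55681). Accessions were matched without versions to RefSeq genes of GRCm38.p6 (27235 probes named, 28446 not). Gene positions are left out because the probes were designed on a different build. Where a gene had several probes, that with the highest mean level represented it. All 12 probes of the members were well above background on all 8 arrays and none was saturated.

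limma 3.58.1 (lmFit, eBayes) in R 4.3.3 fitted oxygen with the replicate number as a block. The series text gives different donors per experiment and the labels' growth protocol a parallel culture at both oxygen levels. Deviations of same-numbered arrays correlated at 0.76, 0.51, 0.38 and 0.66 over genes for numbers 1 to 4. The highest correlation with an array of another number and oxygen level was -0.06, 0.31, 0.31 and -0.18, so number 3 stood out least. The procedure was tested on simulated data. The deposited log2 value table, used as an alternative, matched log2 signal minus the 75th percentile over probes minus each probe's median to within 0.01 for 99.8% of probes on each array, rounded; its column medians ran from -0.12 to 0.25.

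Named were all members, Trp53, Mdm4 and, per list, up to 4 genes past the threshold or else the 2 with the smallest p. Members and lists were chosen with earlier results of these data known. Alternatives covered the block, background, scaling, filter, probe summary, flags, moderation, the value table and each experiment left out.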

Additional observations from a re-analysis of the deposited data

Results flagged for a closer look

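Of 42 groups of 4 arrays checked for a lone extreme value, over the 10 members and 11 other named genes, 1 held one; chance alone marks about 1 in 20. Trp53 in normoxia culture 2 lay at 0.0097, with the other 3 normoxia cultures between 0.50 and 0.60. The hypoxia culture of the same experiment was the lowest of its group too, at -0.91.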

How the results depend on the processing

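No member passed the threshold in any of 15 alternatives, where their differences ran from -0.32 to 0.15 and the smallest adjusted p was 0.313. Signs near 0 turned without a call. Under quantile normalization the difference was -0.037 for Cdkn1a, -0.059 for Mdm2, -0.021 for Bax and -0.10 for Phlda3, under median scaling -0.022 for Mdm2, -0.013 for Bax and -0.0050 for Phlda3, and with normexp background 0.0025 for Ccng1 and -0.023 for Mdm2. With 1 experiment left out, Cdkn1a ran from -0.036 to 0.15, Ccng1 from -0.19 to 0.10, Bbc3 from -0.17 to 0.020 and Phlda3 from -0.0091 to 0.073, and the members' median from -0.13 (without experiment 2) to 0.017. The count of intervals within 1.5-fold, added after seeing the data, was 6 with no replicate block. The count over all genes was 24 with no replicate block, 450 with no filter on dim probes, 2300 with trend and robust moderation, and 388 to 1444 with 1 experiment left out. Calls among p53 regulators numbered 2 with the block as a random effect, with normexp and with trend and robust moderation, and 1 under quantile normalization and with probes above background on all 8 arrays. Calls among the other arrest, repair and metabolism targets numbered 0 with no replicate block, under quantile normalization and with no filter, 2 with the random block, 3 with trend and robust moderation, and 0 to 1 with 1 experiment left out. Calls in the Bcl2 family numbered 0 with no replicate block, 1 with no filter and 2 to 3 with 1 experiment left out. The cause was not tested. Whether replicates are separate cultures rests on the series text, and 4 experiments limit the precision.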
